A study of Mus musculus with 3 samples.

Results

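Long intergenic non-coding RNAs (lincRNAs) are transcripts without a recognised open reading frame whose genes lie between the protein-coding ones. Like mRNA genes they are transcribed by RNA polymerase II from promoters that can carry histone H3 tri-methylated on lysine 4 (H3K4me3), a mark that is laid down around active transcription start sites (TSSs) and is known to be strongest over CpG-rich DNA. Several lincRNA genes also serve as the precursors of microRNAs (miRNAs) or small nucleolar RNAs, which are cut from their exons or introns.

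The H3K4me3-ChIP peaks at lincRNA promoters in embryonic mouse cortex were selected by position. A peak was taken if its summit lay within 1000 bp of the 5′ end of a lincRNA transcript in GENCODE M21 and more than 5000 bp from the 5′ end of every protein-coding transcript. Of 18816 H3K4me3-ChIP peaks, 298 met the rule, at 266 nearest lincRNA genes. One gene, Ftx, had 4 of them, 4 genes had 3, 21 genes had 2 and 240 genes had 1. The members were thus chosen from the called summits of the H3K4me3 library itself, so that the presence of a peak at these genes is given as a description.

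The data were made from cortices of mouse embryos at E13.5 that were fixed, sonicated and immunoprecipitated with an antibody against H3K4me3 or against NF-YC, with non-precipitated chromatin as input. NF-YC is a subunit of NF-Y, the ubiquitous trimeric factor that binds the CCAAT box. The labels give no genotype, strain, treatment or number of embryos for the cortices, and there was 1 library of each kind, so no difference below has a replicate check. H3K4me3-ChIP peaks covered a 5′ end of 7 of 7 cortical marker genes reported here (Emx1, Emx2, Pax6, Sox2, Tbr1, Eomes and Neurod2), with the summit within 1000 bp of it at 6 of them and 1061 bp away at Neurod2, and of 0 of 4 genes of other tissues (Alb, Ins1, Myh6 and Krt5). Intervals are 95% intervals over peaks or genes and cover counting error only, and the read depth of the libraries is unknown from the peak lists.

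The widest H3K4me3 peaks at lincRNA promoters lay at the genes of 2 neural miRNAs. The peak at Mir9-3hg was 11501 bp wide, that at Mir124-2hg 6620 bp, that at Mir124a-1hg 5507 bp, and those at Gm3764 and C130071C03Rik, which contain Mir9-1 and Mir9-2, were 4609 and 4545 bp. miR-9 and miR-124 are abundant in the developing brain and are known for their roles in neural progenitors and neuronal differentiation. The lincRNA promoter peaks as a whole were weaker and narrower than protein-coding promoter peaks: their median fold enrichment was 13.0 (10.6 to 16.3, n = 298) against 35.2 (34.7 to 35.7, n = 14320). Fewer of them were CpG-rich (49.0% against 79.8%, or 61.7% with protein-coding peaks weighted to the strength of the lincRNA peaks), and 5 of the 298 (1.68%) overlapped an NF-Y-ChIP peak, against 4.29% of protein-coding promoter peaks and 3.54% of all H3K4me3-ChIP peaks. The interval of the lincRNA share (0.719 to 3.87) includes the share of all peaks, and weighting the protein-coding peaks to the strength of the lincRNA peaks reduced the difference from −2.62 to −0.824 percentage points.

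The mature miRNAs of the marked host genes that are printed here are miR-9, from hosts of the widest peaks, the 5p arms from the only one of these host genes under an NF-Y-ChIP peak, whose 3p arms are left out, and the one shared by 2 host genes. The sequences are from RefSeq (GRCm38.p6), 5′ to 3′, with the seed (bases 2 to 8) in capitals. miR-9-5p and miR-9-3p come from Mir9-1 in Gm3764 (chr3:88215598-88215686, plus strand), Mir9-2 in C130071C03Rik (chr13:83738814-83738885, plus strand) and Mir9-3 in Mir9-3hg (chr7:79505264-79505353, plus strand). The let-7 RNAs come from 6720427I07Rik on chromosome 13, and miR-129-5p comes from both Mir129-1 in Gm3294 and Mir129-2 in Mir670hg.
miR-9-5p: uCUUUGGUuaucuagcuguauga
miR-9-3p: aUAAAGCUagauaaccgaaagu
let-7a-5p: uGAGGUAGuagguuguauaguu
let-7d-5p: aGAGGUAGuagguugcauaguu
let-7f-5p: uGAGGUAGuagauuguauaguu
miR-129-5p: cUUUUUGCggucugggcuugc
The 3 let-7 RNAs share 1 seed, while both arms of miR-9 have seeds of their own. For the miR-124 host genes no mature sequence was matched and none is printed, and miR-3093, also from Gm3764, is left out.

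The DNA under 4 of the peaks illustrates base composition at CpG-rich and other members. Each sequence is the 151 bp centred on the H3K4me3-ChIP summit, read from GRCm38 on the plus strand, with CG dinucleotides in capitals. Snhg6 (chr1:9943858-9944008) is the strongest CpG-rich member of the lists of known lncRNAs and host genes, and Mir9-3hg (chr7:79500192-79500342) is the widest member. Gm31812 (chr1:52113534-52113684) and Gm40557 (chr12:100242255-100242405) are among the weakest members that are not CpG-rich.
Snhg6: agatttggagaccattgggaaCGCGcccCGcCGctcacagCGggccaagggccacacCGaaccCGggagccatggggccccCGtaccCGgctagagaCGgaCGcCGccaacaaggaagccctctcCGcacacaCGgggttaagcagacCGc
Mir9-3hg: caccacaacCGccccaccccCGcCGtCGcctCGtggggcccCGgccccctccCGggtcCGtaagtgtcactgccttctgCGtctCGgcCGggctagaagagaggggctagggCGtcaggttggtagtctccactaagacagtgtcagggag
Gm31812: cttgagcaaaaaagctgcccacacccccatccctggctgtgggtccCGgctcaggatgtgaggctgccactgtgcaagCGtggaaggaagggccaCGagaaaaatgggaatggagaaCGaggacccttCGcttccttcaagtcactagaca
Gm40557: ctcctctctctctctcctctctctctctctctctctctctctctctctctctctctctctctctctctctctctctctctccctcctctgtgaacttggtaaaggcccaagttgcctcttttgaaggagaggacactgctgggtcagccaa
The window held 15 CG dinucleotides at Snhg6 and 12 at Mir9-3hg, against 5 at Gm31812 and 0 at Gm40557, where it lies largely in a CT repeat. Apart from Mir9-3hg the examples were chosen by CpG class, so this contrast follows from the choice.

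The 5 NF-Y-ChIP summits under lincRNA promoter peaks are shown because they are all the NF-Y-ChIP overlap found among the members. Each line is the 81 bp centred on the NF-Y-ChIP summit on the plus strand of GRCm38, with CCAAT or its reverse complement ATTGG in capitals. The windows lie at chr7:39552382-39552462 for Gm37494, chr13:48545930-48546010 for 6720427I07Rik, chr17:6827872-6827952 for Gm2885, chr12:110591648-110591728 for B930059L03Rik and chr15:103102143-103102223 for Gm10830.
Gm37494: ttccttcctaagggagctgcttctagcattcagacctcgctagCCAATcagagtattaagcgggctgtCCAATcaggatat
6720427I07Rik: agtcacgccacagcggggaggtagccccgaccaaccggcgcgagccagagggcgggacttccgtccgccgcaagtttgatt
Gm2885: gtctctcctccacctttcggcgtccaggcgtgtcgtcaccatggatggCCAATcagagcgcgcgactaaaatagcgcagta
B930059L03Rik: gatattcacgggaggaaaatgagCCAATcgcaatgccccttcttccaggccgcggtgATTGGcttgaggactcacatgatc
Gm10830: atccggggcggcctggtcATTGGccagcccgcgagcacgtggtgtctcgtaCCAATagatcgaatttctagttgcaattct
Gm37494, B930059L03Rik and Gm10830 held 2 CCAAT boxes each, Gm2885 held 1, and 6720427I07Rik held 0 in this window.

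Fold enrichment, the height of the ChIP signal at the summit over the local background as MACS2 computed it, ranged from 2.88 to 72.9 among the lincRNA promoter peaks, with quartiles of 6.85 and 28.9. The median lay 22.2 below that of protein-coding promoter peaks, a difference of −22.2 (−24.7 to −18.9). Of the lincRNA promoter peaks, 42.3% (36.8 to 48.0) had a fold enrichment under 10, against 13.6% (13.0 to 14.2) of the protein-coding ones. The 214 peaks at promoters of other non-coding genes had a median of 11.6, which the interval of the difference from lincRNA peaks, 1.37 (−2.13 to 5.20), does not separate from them. The 1861 peaks more than 5000 bp from any annotated 5′ end were weaker, with a median of 7.48 and a difference of 5.54 (3.09 to 8.83). The lincRNA promoter peaks thus lay between protein-coding promoters and H3K4me3 peaks far from any annotated 5′ end.

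**Figure D1:**
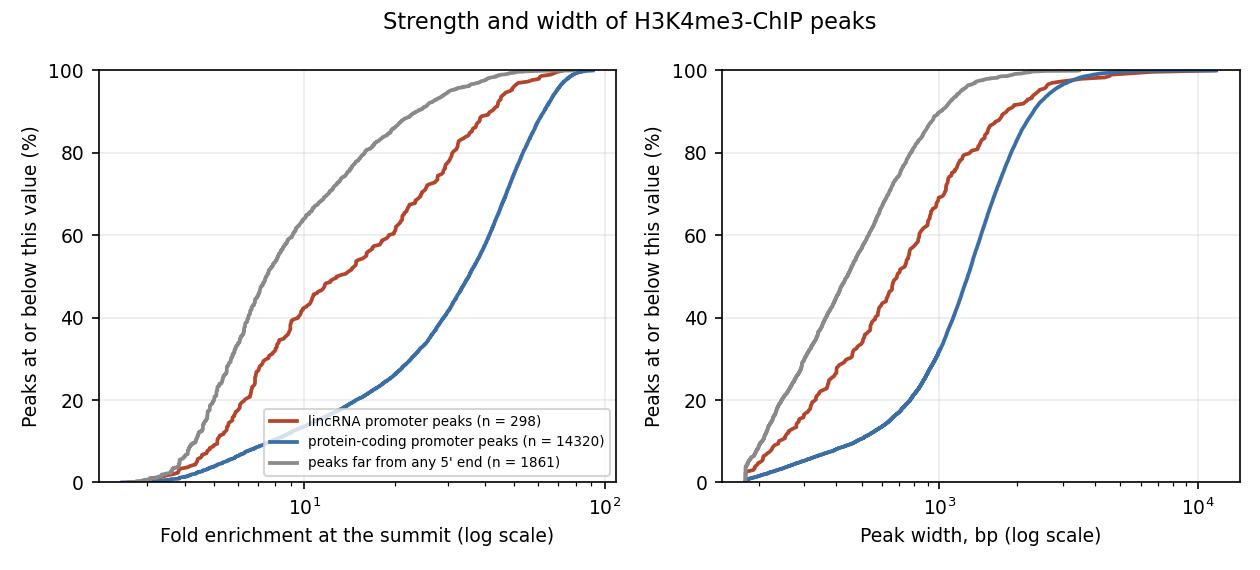
Cumulative share of H3K4me3-ChIP peaks (y axis, percent) by fold enrichment at the summit (left) and by peak width in bp (right), both on log scales, for 298 lincRNA promoter peaks, 14320 protein-coding promoter peaks and 1861 peaks more than 5000 bp from any 5′ end. Over most of the range the lincRNA curve lies between the others for both measures, and it crosses the protein-coding curve among the widest peaks.

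The strongest lincRNA promoter peak was assigned to Gm27017, at 72.9-fold. Its summit lay 752 bp from the Gm27017 5′ end but 424 bp from that of Dleu2, a non-coding host gene of another GENCODE type, so the peak may equally be counted with that gene. C030034I22Rik followed at 69.7-fold and Snhg6, a host gene of small nucleolar RNAs, at 67.8-fold. Next came 4632415L05Rik at 66.0, Mir670hg, whose gene span holds Mir129-2 and Mir670, at 61.4, Gm8066 at 60.7 and 1700020I14Rik at 60.5. Gm37494 at 57.3, Gm36445 at 55.6 and Gm20109 at 51.5 completed the 10 strongest. The 61.4-fold peak lay at a Mir670hg 5′ end downstream of both hairpins. At a Mir670hg 5′ end upstream of them the peak had a fold enrichment of 18.1. The peak of Gm27017 was stronger than 97.1% of the protein-coding promoter peaks and that of Gm20109 stronger than 77.4% of them, so the strongest lincRNA promoters reached the upper part of the protein-coding range.

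The weakest lincRNA promoter peaks were those at Gm40557 (2.88-fold), Gm31812 and CT486005.1 (3.06-fold each), the weaker of a pair at Neat1 (3.36-fold) and 1110015O18Rik (3.46-fold). Neat1 is the architectural RNA of the nuclear paraspeckle. Its peaks lay 181 and 851 bp upstream of the nearest annotated Neat1 5′ end, and the stronger one reached 5.85-fold.

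Because the annotation decides which genes count as lincRNA, the members were set against RefSeq. Of 193 members whose lincRNA gene matched a RefSeq gene, 176 were lncRNA and 13 protein-coding in RefSeq. In 27 of the 298 members a RefSeq mRNA began within 1000 bp of the summit, and in 13 of these it was a curated one. Among the 10 strongest these were Gm37494, with a curated mRNA 112 bp from the summit, and Gm8066, with a predicted mRNA of Gigyf1 277 bp away. The median fold enrichment of the 27 was 19.03 (8.11 to 29.1). Without the 31 members that had a RefSeq mRNA within 5000 bp, the median was 12.2 (10.1 to 15.9, n = 267), the CpG-rich share 49.1% and the NF-Y overlap 4 of 267.

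Peak width followed the same order as strength for most of the members. The median width was 686 bp (623 to 766) for lincRNA promoters and 1286 bp (1274 to 1299) for protein-coding ones, a difference of −599.5 bp (−663.9 to −518.7), while peaks away from 5′ ends had a median of 440 bp. Other non-coding promoters had a median of 706.5 bp, and the difference of lincRNA peaks from them, −20.5 bp (−157.4 to 125.0), includes 0. Among peaks of like strength the gap was smaller: over 4 equal bins of all H3K4me3-ChIP peaks by fold enrichment, from weakest to strongest, the medians were 352 bp for lincRNA against 357 bp for protein-coding promoters, 767 against 995, 1451 against 1429 and 1488.5 against 1611, and the intervals were apart only in the second bin (683 to 859 against 975 to 1018). Only 8.39% (5.75 to 12.1) of the lincRNA peaks were wider than 2000 bp, against 16.7% (16.1 to 17.3) of the protein-coding ones. At the widest end this order did not hold. The Mir9-3hg peak was wider than all but 1 of the 14320 protein-coding promoter peaks and ranked 3 among all 18816 peaks. At Mir124-2hg 8 protein-coding peaks were wider, at Mir124a-1hg 23, at Gm3764 69 and at C130071C03Rik 73. The sixth widest peak, 4364 bp, was at 3110039M20Rik, and Rmst, a lincRNA of neural progenitors, had a peak of 3246 bp.

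All 3 miR-9 hairpins lay inside a lincRNA promoter peak. The Mir9-3 hairpin was within the 11501 bp peak of Mir9-3hg. The Mir9-2 hairpin was within the 4545 bp peak of C130071C03Rik. The C130071C03Rik 5′ end nearest to that summit lay inside the hairpin, past the bases of miR-9-5p. The 5′ end of Gm33366, a gene of another GENCODE type, was nearer, 638 bp from the summit, so the peak may equally be counted with that gene. Gm3764 had 3 member peaks, of 4609, 3541 and 1061 bp, and the Mir9-1 hairpin lay within the second, which had a fold enrichment of 29.9. The fold enrichments of the widest peaks were moderate: 38.4 at Mir9-3hg, 38.5 at the widest peak of Gm3764, 32.7 at Mir124a-1hg, 24.4 at C130071C03Rik and 21.5 at Mir124-2hg. None of these was among the 10 strongest members, and 3 of the 5 (Gm3764, Mir124a-1hg and Mir124-2hg) were not CpG-rich under the summit.

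The host genes of miRNAs as a group were then set beside the other members, a comparison that was prompted by the widest peaks and includes them. A RefSeq miRNA hairpin lay inside 17 of the 276 lincRNA genes with a member peak, 6.16% (3.88 to 9.64), and inside 18 of the 4898 without one, 0.367% (0.233 to 0.580), a difference of 5.79 percentage points (3.50 to 9.28). The 26 peaks with a summit within 1000 bp of a 5′ end of these host genes, 1 of which lay nearer to the 5′ end of Gm26700, had a median fold enrichment of 23.9 (14.8 to 38.4), against 11.7 (10.1 to 15.1) for the 272 other lincRNA promoter peaks, and these intervals overlap. Their median width was 1158.5 bp (837 to 2137) against 656 bp (581 to 745), and 8 of the 26 were wider than 2000 bp, 30.8% (16.5 to 49.99), against 6.25% (3.94 to 9.78). The miR-9 host genes were then left out after seeing the data. The 20 remaining host peaks had a median fold enrichment of 22.3 (14.8 to 41.0) and a median width of 1103.5 bp (739 to 1410). Of these peaks 4, 20% (8.07 to 41.6), were wider than 2000 bp. Each of these intervals overlaps that of the other members. The CpG-rich share of all 26 host peaks was 53.8% (35.5 to 71.2) against 48.5% (42.7 to 54.4), and these intervals overlap. Several of the 26 peaks share a host gene and are not independent of each other, and the 2 miR-124 host genes were counted with the others because their hairpins were not matched. Hairpins were matched to the whole gene span and need not lie downstream of the marked 5′ end, as at the 61.4-fold Mir670hg peak.

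**Figure D2:**
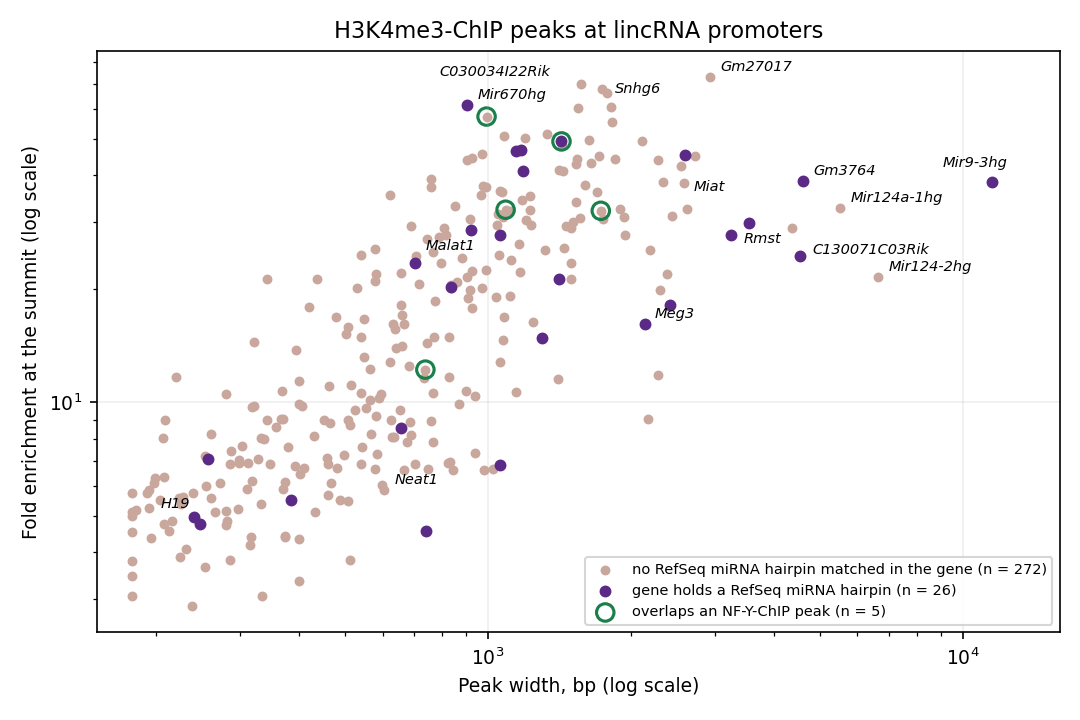
Each point is 1 of the 298 H3K4me3-ChIP peaks at lincRNA promoters, by width in bp (x axis) and fold enrichment at the summit (y axis), both on log scales. The widest peaks of the miR-9 and miR-124 host genes lie at the far right at moderate fold enrichment (the miR-124 ones in the colour of genes without a matched hairpin), and the 5 members that overlap an NF-Y-ChIP peak (circled) are spread between 12.2-fold and 57.3-fold.

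Among well-known lncRNAs, 18 of those listed were lincRNA genes that could meet the rule, and 11 of them had a member peak. Over all 5174 eligible lincRNA genes the share was 5.33%. The list was written with earlier results of these data known, so the count is a description. Lncpint, a target of p53, had the strongest (45.1-fold), followed by Miat (42.3-fold), a nuclear RNA of neurons, and Pvt1 (37.2-fold), the neighbour of Myc. Of the genes at the X-inactivation centre, Jpx reached 30.9-fold with its summit exactly on an annotated 5′ end, and the strongest of 4 peaks at Ftx 23.4-fold. Rmst reached 27.8-fold, Malat1, an abundant RNA of nuclear speckles, 24.4-fold and Lockd, downstream of the cell cycle inhibitor Cdkn1b, 21.9-fold. The lowest were Meg3 and H19, both imprinted, with 16.1-fold and 4.98-fold, and Neat1, already given, with 5.85-fold. The median of the strongest peaks at these 11 genes was 24.4-fold, against 14.7-fold for the strongest peak of each of the 266 nearest lincRNA genes. Of the 11, 9 lay above the median of all members, in which a gene with several peaks counts more than once.

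The 7 eligible well-known lncRNAs without a member peak were Pantr1, Mirg, Xist, Peril (annotated as Gm38509), Hotair, Lncenc1 and Trp53cor1. Pantr1 did have an H3K4me3-ChIP peak of 37.6-fold, which lay 723 bp from a protein-coding 5′ end and was left out by the rule. Of 9 eligible host genes of miRNAs or small nucleolar RNAs, from a list also written with earlier results known, 8 had a member peak and Mir17hg had none. The share over all eligible lincRNA genes was 5.33%. Beyond those already named these were Snhg20 (46.7-fold), Snhg12 (32.4-fold) and Mir155hg (20.2-fold).

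Of the 5174 lincRNA genes with a 5′ end more than 5000 bp from protein-coding ones, 276 had a member peak, 5.33% (4.75 to 5.98). For comparison, 29.7% of all 55450 genes in the annotation and 62.0% (61.4 to 62.7) of protein-coding genes had an H3K4me3-ChIP summit within 1000 bp of a 5′ end. Marked and unmarked lincRNA genes differed in base composition. A 5′ end was called CpG-rich if the 500 bp around it had a GC content over 50% and a CpG observed/expected ratio over 0.6. This held for 41.7% (36.0 to 47.6) of the marked lincRNA genes and 1.39% (1.10 to 1.76) of the unmarked ones. Read the other way, 115 of 183 lincRNA genes with a CpG-rich 5′ end were marked, 62.8% (55.6 to 69.5), against 161 of 4991 without one, 3.23% (2.77 to 3.75). The same split gave 96.0% and 18.1% for protein-coding genes, for which any summit within 1000 bp counted, whereas a lincRNA gene with its only peak near a protein-coding 5′ end, such as Pantr1, counted as unmarked, so these levels were not compared.

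Marked lincRNA genes were also closer to protein-coding genes. The median distance to the nearest protein-coding 5′ end was 38582.5 bp (33068 to 48290) for marked and 83038.5 bp (78203 to 86726) for unmarked lincRNA genes, and 56.9% against 36.4% lay within 50000 bp of one. That neighbour itself had an H3K4me3-ChIP peak in 74.6% (69.2 to 79.4) of marked and 68.2% (66.9 to 69.5) of unmarked genes. Marked genes were longer, with a median span of 10079.5 bp (7949 to 12079) against 6711.5 bp (6306 to 6973), and 39.5% against 25.7% had several transcripts, each 5′ end of which could meet the rule. They were slightly less often multi-exonic, 91.3% against 95.8%, a difference of −4.53 percentage points (−8.48 to −1.68).

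The nearest protein-coding gene was a transcription factor gene from a list of 129 developmental regulators at 7 of the marked lincRNA genes, 2.54% (1.23 to 5.14), and at 3.35% (2.88 to 3.89) of the unmarked ones, which does not separate the groups. The marked pairs included Gm26872 with Barhl2 at 12841 bp, 3110006O06Rik with Nr2f1, a regulator of cortical area identity, at 18813 bp, Pvt1 with Myc at 50564 bp and 4632428C04Rik with Hes1, a Notch effector of neural progenitors, at 55717 bp. The other 3 pairs were farther apart, with AC121263.1 at 145235 bp from Tcf4, Gm31946 at 227491 bp from Nr2f1 and Gm28175 at 433911 bp from Pou3f3. At the level of peaks, 38 of the 298 summits lay 5000 to 10000 bp from the nearest protein-coding 5′ end.

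Under the summits, 146 of 298 lincRNA promoter peaks were CpG-rich, 49.0% (43.4 to 54.6), by the same definition applied to the 500 bp around the summit. The share was 79.8% (79.2 to 80.5) at protein-coding promoters, a difference of −30.8 percentage points (−36.5 to −25.1), and 69.8% over all H3K4me3-ChIP peaks. At other non-coding promoters it was 47.7%, and the interval of the difference from lincRNA peaks, 1.33 percentage points (−7.40 to 10.01), includes 0. The median GC content was 57.0% against 65.6%, and the median CpG observed/expected ratio 0.611 against 0.779. CpG-rich lincRNA peaks were stronger and wider than the rest: their medians were 24.2-fold (20.6 to 27.8) and 972 bp (837 to 1112), against 8.06-fold (7.10 to 9.06) and 455.5 bp (373 to 540) for the 152 others. Protein-coding promoter peaks differed in the same direction, with 40.02-fold in the CpG-rich class and 12.5-fold in the other. In each class lincRNA peaks were the weaker ones.

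The CpG-rich share was also lower among peaks of like strength. The same 4 bins of fold enrichment had limits at 9.83, 27.5 and 45.7, and 124, 94, 62 and 18 lincRNA peaks fell into the bins from weakest to strongest. The lincRNA share of CpG-rich peaks was 22.6%, 58.5%, 75.8% and 88.9% in these bins, and the protein-coding share was 36.9%, 69.4%, 89.9% and 95.8%. The difference was −14.4 percentage points (−21.2 to −5.97) in the weakest bin, −10.8 (−21.1 to −1.29) in the next, −14.1 (−26.1 to −5.08) in the third, and −6.90 (−28.6 to 1.13) in the strongest, where the interval includes 0. Weighted to the strength of the lincRNA peaks, the protein-coding share was 61.7%.

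**Figure D3:**
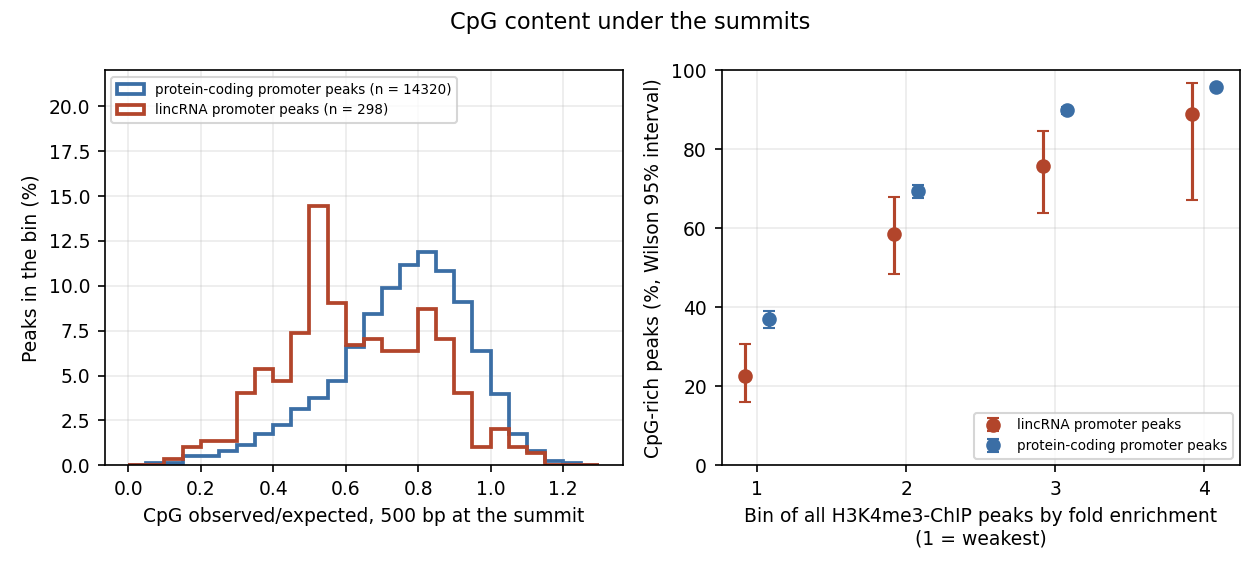
Left, the share of peaks (percent) in bins of CpG observed/expected ratio over the 500 bp at the summit, for 298 lincRNA and 14320 protein-coding promoter peaks. Right, the CpG-rich share with its Wilson 95% interval in 4 equal bins of all H3K4me3-ChIP peaks by fold enrichment: both sets rise from the weakest to the strongest bin, and the lincRNA points are lower in each, with the strongest bin resting on 18 lincRNA peaks.

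Some strong members departed from this relation. Mir670hg, the fifth strongest, had a ratio of 0.466 and was not CpG-rich, nor were Miat (0.539) and Pvt1 (0.535). The widest Gm3764 peak had a ratio of 0.227 at 38.5-fold. At the other end, the weaker Neat1 peak was the weakest CpG-rich member at 3.36-fold.

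Summits in sequence that the reference marks as repeats were 22 of 298, 7.38% (4.93 to 10.9), against 3.99% (3.69 to 4.33) at protein-coding promoters, a difference of 3.39 percentage points (0.909 to 6.94). Read at the 5′ end in place of the summit, the difference was 1.36 (−1.13 to 4.92), which includes 0, and the protein-coding share weighted to the strength of the lincRNA peaks was 5.31%, within the lincRNA interval. Over all H3K4me3-ChIP peaks the share was 4.60%. At other non-coding promoters it was 5.61% and far from any 5′ end 6.72%. The differences of lincRNA peaks from these sets were 1.78 (−2.87 to 6.04) and 0.666 (−2.08 to 4.36) percentage points, and both intervals include 0. Of the 22, 17 were in members that were not CpG-rich. By strength, 16 of the 22 were in the weakest bin, where the difference was 5.28 percentage points (0.314 to 12.4), and in each of the stronger bins the interval of the difference included 0.

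The NF-Y-ChIP list held 733 peaks. Of the lincRNA promoter peaks 5 overlapped one by at least 1 bp, 1.68% (0.719 to 3.87), against 4.29% (3.97 to 4.64) of protein-coding promoter peaks and 3.54% of all H3K4me3-ChIP peaks. The difference was −2.62 percentage points (−3.64 to −0.405), an interval that came to include 0 under 4 of 14 alternatives: −2.38 (−3.71 to 0.525) with −log10 q of at least 10, −2.41 (−3.54 to 0.0501) with the strongest peak of each gene, −2.20 (−3.25 to 0.0187) against isolated protein-coding promoters and −2.14 (−3.16 to 0.0678) with the NF-Y-ChIP summit inside the peak. Strength moved with this count: NF-Y overlap at protein-coding promoters rose over the 4 bins of strength from 0.893% to 2.33%, 4.76% and 6.73%, and the lincRNA counts were 0 of 124, 1 of 94, 2 of 62 and 2 of 18. Within each bin the interval of the difference included 0, and weighted to the strength of the lincRNA peaks the protein-coding share was 2.502%, within the lincRNA interval. All 5 were CpG-rich members, 3.42% (1.47 to 7.77) of 146, and 0 of 152 others overlapped, for which the interval reaches 2.46%. At other non-coding promoters the overlap was 2.80% and far from any 5′ end 0.860%. The differences of lincRNA peaks from these sets were −1.13 (−4.44 to 1.53) and 0.818 (−0.279 to 3.03) percentage points, and both intervals include 0.

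Gm37494 had the strongest H3K4me3 of the 5, at 57.3-fold, with an NF-Y-ChIP fold enrichment of 7.75, and is the one at a curated RefSeq mRNA. The let-7 host gene 6720427I07Rik had 49.2-fold H3K4me3 and 6.78-fold NF-Y, the latter at the window without a CCAAT box. Gm2885 had 32.4-fold and 4.64-fold, the weakest NF-Y signal of the 5. B930059L03Rik had 32.2-fold and 6.68-fold, with its H3K4me3 summit 961 bp from the lincRNA 5′ end and 9979 bp from that of Dync1h1, which encodes the dynein heavy chain. Gm10830 had the weakest H3K4me3 of the 5 at 12.2-fold and the strongest NF-Y at 8.12-fold. The order by NF-Y signal was thus not the order by H3K4me3. From the lincRNA 5′ end, the NF-Y-ChIP summit lay at −103 bp for Gm37494, −54 bp for Gm10830 and 78 bp for Gm2885. It lay 530 bp into 6720427I07Rik and 1176 bp into B930059L03Rik, the latter beyond the 1000 bp limit used for H3K4me3-ChIP summits.

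The letters CCAAT or ATTGG were counted in promoter windows of marked genes. In the 300 bp from 250 bp before to 50 bp after the 5′ end nearest to the summit, they were found at 35.6% (30.4 to 41.2) of lincRNA promoter peaks and 33.5% (32.7 to 34.3) of protein-coding ones, a difference of 2.09 percentage points (−3.18 to 7.73) whose interval includes 0. The direction of this difference depended on the choice of 5′ end, and with the gene's outermost 5′ end alone it was −6.10. Over all 7155 eligible lincRNA 5′ ends, marked or not, the share was 43.2%, and over all protein-coding 5′ ends 34.8%. Within 100 bp of the H3K4me3-ChIP summit, 50 of 298 lincRNA peaks held the letters, 16.8% (13.0 to 21.4), against 10.1% (9.63 to 10.6) at protein-coding promoters, 14.5% (10.4 to 19.8) at other non-coding promoters, 18.2% far from any 5′ end and 11.7% over all H3K4me3-ChIP peaks.

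Other motifs were counted in the same windows, on both strands. GGGCGG, the GC box bound by Sp1, was found at 43.6% (38.1 to 49.3) of lincRNA against 69.4% (68.6 to 70.2) of protein-coding promoter peaks, a difference of −25.8 percentage points (−31.3 to −20.1), and in 8.94% of all eligible lincRNA windows. TATAAA was found at 9.06% (6.30 to 12.9) against 5.05% (4.70 to 5.42), and TAATTA, a core bound by many homeodomain factors, at 4.03% (2.32 to 6.91) against 1.69% (1.49 to 1.91). Over all eligible lincRNA windows these shares were 15.6% and 10.2%. At other non-coding promoter peaks GGGCGG was found in 40.7%, TATAAA in 9.81% and TAATTA in 7.01% of the windows. For CCGGAA (20.1% against 24.7%), CACGTG (10.4% against 9.18%) and CAGCTG (14.4% against 16.0%) the interval of the difference included 0. No 2 of these motifs are reverse complements of each other, and a match is a description of the letters only.

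The position of the summits is given as a description, because the rule used their distance from the 5′ end. The median position was 84 bp (52 to 114) into the gene against 123 bp (121 to 126) at protein-coding and 115 bp (81 to 146) at other non-coding promoters. With gene 5′ ends only, the medians were 109 and 219 bp for lincRNA and protein-coding promoters. The quartiles were −157.75 and 218.75 bp for lincRNA and 21 and 218 bp for protein-coding promoters. The summit was downstream of the 5′ end in 63.1% (57.5 to 68.4) of lincRNA and 78.4% (77.7 to 79.1) of protein-coding promoter peaks, and within 100 bp of it in 23.8% and 30.6%. In 21 members the 5′ end of a gene of another type was nearer than that of the lincRNA, and in 35 a transcript of the opposite strand began within 1000 bp of the lincRNA 5′ end.

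**Figure D4:**
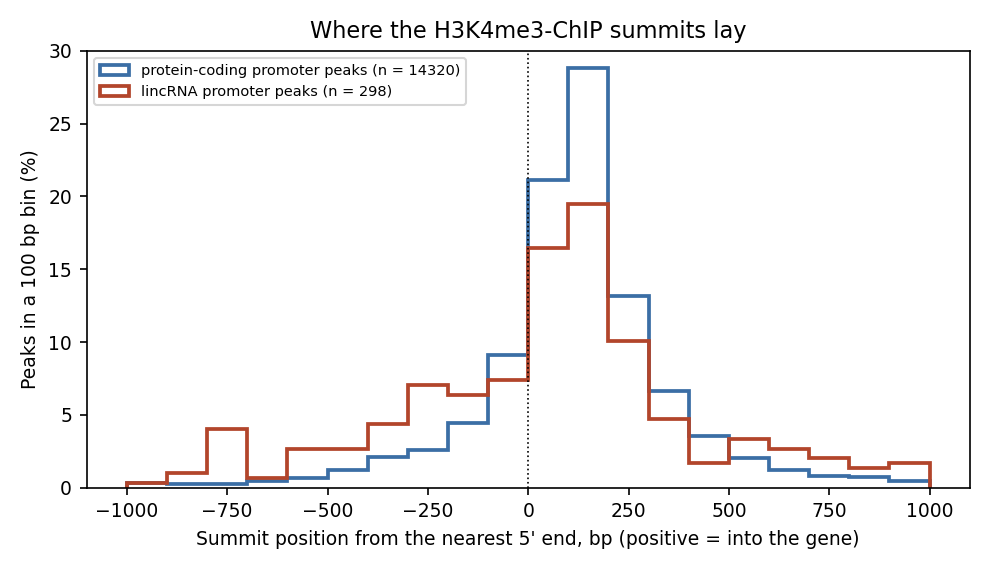
Position of the H3K4me3-ChIP summit from the nearest 5′ end in bp (x axis, positive into the gene) as the share of peaks in 100 bp bins (y axis, percent), for 298 lincRNA and 14320 protein-coding promoter peaks. Both sets peak between 100 and 200 bp into the gene, and a larger part of the lincRNA summits lies upstream of the 5′ end (dotted line).

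Of the peaks just outside the limits of the rule, some were about as strong as those just inside and others were much weaker. Just inside 1000 bp were C130071C03Rik at 966 bp (24.4-fold) and B930059L03Rik at 961 bp (32.2-fold), so that 1 of the 5 widest peaks and 1 of the 5 with NF-Y lay at the edge. Just outside were AC123853.1 at 1034 bp (23.6-fold) and Gm17382 at 1085 bp (6.62-fold). On the side of the protein-coding genes, Snhg12 at 5458 bp and Gm20109 at 5484 bp were kept, and Gm49782 at 4959 bp (53.0-fold) and C030014I23Rik at 4954 bp (3.34-fold) were left out. In all, 652 peaks lay within 1000 bp of a lincRNA 5′ end, of which 354 were within 5000 bp of a protein-coding one and 311 within 1000 bp, where the 2 promoters cannot be told apart by these peaks.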

How the data were processed

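ChIP-seq of E13.5 mouse cortex comprised 3 libraries: input, NF-Y-ChIP and H3K4me3-ChIP. The submitters' processing notes name FastQC, Bowtie2 2.2.8 and MACS2 2.1.2 and the build GRCm38; per the study's methods, trimmed reads were aligned to mm10 and peaks called with MACS2 at a p threshold for NF-Y-ChIP and a q threshold for H3K4me3-ChIP. The authors deposited 1 peak list per antibody, with the fold enrichment at the summit (a ratio over the local background), a display score, and −log10 p- and q-values. Each list was assigned to its antibody by its score, which equals 10 times −log10 p in 733 of 733 NF-Y-ChIP peaks and 10 times −log10 q in 18816 of 18816 H3K4me3-ChIP peaks, rounded down, as the different thresholds require. The H3K4me3-ChIP list analysed here is shorter than the one the study describes, and regions outside it were not analysed here. Fold enrichment depends on depth and on the background model, so it was compared only within a list.

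Peaks were placed against GENCODE M21 transcripts and sequence was read from GRCm38 with Python 3.11.15, pysam 0.24.0, pandas 2.3.3 and NumPy 2.4.6, with intervals from SciPy 1.17.1 (Wilson for shares, Newcombe for their differences, order statistics for medians). The scripts were tested on simulated data. No test across replicates was possible with 1 library per antibody, and no p-value is given. Named genes were the 10 strongest, 5 widest and 5 weakest members, every member with NF-Y overlap, members of the lists of known lncRNAs and host genes, and those nearest each limit, with 3110039M20Rik and the other genes named beyond these chosen after their values were seen. The members and lists were chosen with earlier results of these data known. Alternatives covered the distance limits, annotation levels and 5′ ends, stricter peaks, merged peaks, overlap and CpG windows.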

Additional observations from a re-analysis of the deposited data

How the results depend on the processing

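With 1 library per antibody, replicates could not be left out. No paired analysis was possible because each group holds 1 sample. Of 91 recomputed values, 80 stayed within the interval of the reported value, 10 moved beyond it in the same direction and 1 reversed. The share of lincRNA genes with a member peak was 4.39% with a limit of 500 bp, 6.30% with 2000 bp and 4.21% with −log10 q of at least 10. The difference in median fold enrichment was −24.8 with gene 5′ ends only and −17.2 with −log10 q of at least 10, where the difference in median width was −471.5 bp. With gene 5′ ends only, the difference in median summit position was −110.0 bp and that in the CCAAT share reversed to −6.10 percentage points (−11.4 to −0.357). The CpG-rich difference was −40.5 percentage points with the window at the 5′ end, −36.7 with a 1000 bp window and −12.7 against protein-coding peaks weighted to the strength of the lincRNA peaks. The interval of the NF-Y difference included 0 under 4 of 14 alternatives and that of the repeat difference under 1 of 11, with the values given above. The weighting to strength, and leaving out members near a RefSeq mRNA, were chosen after seeing the data. The causes of these shifts were not tested.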
